A study of Mus musculus with 48 samples.

Results

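The levels of 10 genes of liver macrophages and blood monocytes were followed: Pla2g7, Mmp9, Cx3cr1, Fcgr4, Clec4f, Cd5l, Vsig4, Marco, Cd163 and Timd4. They were picked by symbol from the deposited table of 23732 genes, and all 10 passed the filter on low counts, which left 14836 genes. Poly-A RNA was sequenced from the livers of 48 male C57BL/6 mice aged 4 to 6 months, 4 per genotype at each of 6 times. The knockout mice (KO) carried floxed alleles of Bmal1 (Bmal1f/f) and EsrCre, a Cre recombinase present in every tissue that tamoxifen switches on. The mice labelled WT were littermates that also carried the floxed alleles but no Cre. Both genotypes were given 5 mg of tamoxifen by gavage on each of 5 days, and 7 days after the last dose they were moved to constant darkness for 36 h before the livers were taken, every 4 h over 20 h. Times are zeitgeber hours (ZT), as in the labels. Cre was present in every KO mouse and in no WT mouse, so its own effect and that of the deletion cannot be told apart. KO mice weighed 27.9 g ± 2.5 (SD, n = 24) and WT mice 30.5 g ± 2.1 (n = 24), so body weight differed along with genotype. Mice of ZT4 and ZT8, of ZT12 and ZT16, and of ZT20 and ZT0 came from separate sets of cages, so time of day and cage set cannot be told apart, while each set held both genotypes.

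Kupffer cells are the macrophages that live in the liver sinusoids, where they take up bacteria, dying cells and modified lipoproteins from the blood. In adult mice Clec4f, a C-type lectin, marks them, together with Cd5l (a secreted scavenger-receptor protein), Vsig4 (a complement receptor), Marco (a scavenger receptor), Cd163 (the receptor for haemoglobin bound to haptoglobin) and Timd4 (a receptor for phosphatidylserine on dying cells). Cx3cr1, the receptor for fractalkine, is typical of blood monocytes and of macrophages recently derived from them, and Fcgr4 is an activating receptor for IgG on monocytes and macrophages. Pla2g7 encodes the secreted phospholipase A2 that breaks down platelet-activating factor (PAF) and oxidised phospholipids, and Mmp9 encodes gelatinase B, a secreted zinc protease of macrophages and neutrophils. BMAL1 is the clock transcription factor that pairs with CLOCK at E-box elements. The genes had been selected with their KO and WT levels known, as macrophage genes around the large differences of Pla2g7 and Mmp9. Their differences between genotypes are therefore given as a description, and nothing is read from how many of them pass a threshold. Tests are given for features that did not enter that choice and for lists of other genes. Those lists too were chosen with earlier results of these data known.

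In build mm9, as the deposited table gives them, the genes lie at chr17:43705047-43749150 (Pla2g7), chr2:164766280-164781350 (Mmp9), chr9:119957811-119977400 (Cx3cr1), chr1:172949051-172959892 (Fcgr4), chr6:83594536-83606181 (Clec4f), chr3:87161803-87174996 (Cd5l), chrX:93442542-93488777 (Vsig4), chr1:122371115-122401661 (Marco), chr6:124254669-124280545 (Cd163) and chr11:46624302-46657834 (Timd4). Promoter sequences of 9 of the 10 genes were found in RefSeq's table for build GRCm38.p6, and Mmp9 was not matched. The 250 bases before the annotated start of 4 genes are shown 5′ to 3′ on the gene's own strand. Pla2g7, Cx3cr1 and Fcgr4 are shown because their differences between genotypes were the largest with a sequence, and Clec4f because it is the marker most typical of Kupffer cells. They come from chr17:43568201-43568450 (plus strand), chr9:120068297-120068546 (minus strand), chr1:171018676-171018925 (plus strand) and chr6:83656117-83656366 (minus strand). Capitals mark AGGTCA, the core of the element shared by REV-ERB and ROR, and GAGGAA, the core bound by the macrophage factor PU.1, read on either strand.
Pla2g7: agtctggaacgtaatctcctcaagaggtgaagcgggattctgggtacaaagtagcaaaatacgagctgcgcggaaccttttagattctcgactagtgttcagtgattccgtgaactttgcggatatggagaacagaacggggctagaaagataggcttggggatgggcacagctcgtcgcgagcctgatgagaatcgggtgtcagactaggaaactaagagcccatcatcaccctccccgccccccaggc
Cx3cr1: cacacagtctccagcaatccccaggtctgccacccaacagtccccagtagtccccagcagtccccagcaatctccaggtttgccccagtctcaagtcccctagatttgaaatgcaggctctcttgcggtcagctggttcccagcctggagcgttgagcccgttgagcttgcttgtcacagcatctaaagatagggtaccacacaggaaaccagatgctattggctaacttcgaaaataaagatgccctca
Fcgr4: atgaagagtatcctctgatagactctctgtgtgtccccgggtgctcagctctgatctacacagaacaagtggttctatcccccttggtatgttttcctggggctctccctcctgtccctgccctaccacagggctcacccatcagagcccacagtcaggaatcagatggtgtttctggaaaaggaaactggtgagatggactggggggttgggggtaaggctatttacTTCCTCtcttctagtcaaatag
Clec4f: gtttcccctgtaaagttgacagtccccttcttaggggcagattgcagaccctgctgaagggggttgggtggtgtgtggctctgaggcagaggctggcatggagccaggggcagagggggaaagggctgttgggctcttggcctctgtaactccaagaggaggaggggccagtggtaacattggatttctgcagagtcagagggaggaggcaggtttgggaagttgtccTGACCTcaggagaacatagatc
The E-box CACGTG was in 0 of the 9 promoters of this length, against 6.02% of the 32851 promoters in the table. AGGTCA was in 2 of 9 (Clec4f and Timd4), against 14% of all, and GAGGAA was in 4 of 9 (Cd5l, Vsig4, Marco and Fcgr4), against 23.3% of all. None of the 3 motifs overlapped another here, and Pla2g7 and Cx3cr1 held none of them in this window. A match is a description of the letters and not a bound site, and these windows say nothing of sites elsewhere in the genes.

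Each library held 33562272 to 34035644 counts, and levels are given in CPM, a count scaled to the depth of its library, with TMM factors between 0.898 and 1.14. For the least abundant of the genes, Cx3cr1 and Mmp9, the lowest libraries still held 26 and 34 reads. Arntl, the gene of BMAL1, ranged from 0.979 to 47.8 CPM in WT and from 4.6 to 25.6 CPM in KO. Its 24 h amplitude was 2.03 on the log2 scale in WT and 0.18 in KO, a difference with an adjusted p of 6.67e-05 (edgeR's quasi-likelihood test), while its level averaged over times did not pass (log2 difference of -0.05, adjusted p = 0.916). A count over the whole gene also takes in reads outside a deleted part, so this level does not check the deletion. KO mice 20 and 21 of ZT12 had the lowest and the highest mean level of 16 other Kupffer markers among all 48 livers, and calls lost without them are named. Along with KO mice 43 and 44 of ZT0 they form the 4 libraries that stood farthest from their groups in an earlier examination of these data.

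Pla2g7 and Mmp9, which encode the secreted enzymes, were higher in KO at all 6 times. Averaged over the times, Pla2g7 was 1.78-fold higher (95% interval 1.58 to 2.02, a log2 difference of 0.83 ± 0.09, SE) and Mmp9 2.68-fold higher (2.15 to 3.33, 1.42 ± 0.16). Over the 24 mice of each genotype, Pla2g7 had a mean of 11.5 CPM ± 3.08 (SD) in WT and 20.4 ± 5.18 in KO. Mmp9 had a mean of 2.08 CPM ± 0.70 in WT and 5.57 ± 2.35 in KO. More KO livers lay above every WT liver for Mmp9 (19 of 24) than for Pla2g7 (15 of 24).

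At ZT0, Pla2g7 stood at 6.63, 9.07, 10.4 and 13.3 CPM in the 4 WT livers and at 12.4, 18.3, 19 and 27.2 CPM in the 4 KO livers. At ZT4, the WT livers had 10.7, 12, 12.7 and 14.7 CPM and the KO livers 14.8, 16, 16 and 18.3 CPM. At ZT8, the values were 10.3, 12.2, 17.1 and 18 CPM in WT and 20.7, 21.7, 22.8 and 26.6 CPM in KO. The groups overlapped at ZT0, where 1 KO liver lay below the highest WT liver, and were apart at ZT4 and ZT8. At ZT12, WT livers had 9.34, 10.6, 11 and 17.1 CPM and KO livers 13.9, 17.3, 17.9 and 30.4 CPM, an overlap. At ZT16, they had 10.8, 12.7, 12.8 and 13 CPM in WT and 21.3, 25.8, 28.6 and 28.8 CPM in KO. At ZT20, the WT values were 6.87, 7.03, 9.0 and 9.15 CPM and the KO values 14.2, 17.3, 18.8 and 22.4 CPM. The log2 difference was smallest at ZT4 (0.38 ± 0.21, SE) and largest at ZT20 (1.18 ± 0.22). All 4 KO livers were thus above all 4 WT livers at ZT4, ZT8, ZT16 and ZT20.

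For Mmp9, the WT livers of ZT0 had 1.49, 1.56, 1.9 and 3.43 CPM and the KO livers 2.8, 2.82, 5.59 and 12.5 CPM. The livers of ZT4 had 1.58, 2.42, 2.57 and 3.55 CPM in WT and 2.84, 3.89, 4.64 and 4.91 CPM in KO. Those of ZT8 had 2.02, 2.03, 2.43 and 2.95 CPM in WT and 4.63, 5.55, 6.55 and 9.31 CPM in KO. The highest value of all was that of KO mouse 44 at ZT0, and 2 of the 3 other KO livers of that hour lay below the highest WT liver. At ZT12 the WT livers held 1.14, 1.53, 2.09 and 2.25 CPM and the KO livers 4.0, 4.22, 6.13 and 8.02 CPM. The values of ZT16 were 1.02, 1.39, 2.1 and 3.3 CPM in WT and 3.1, 6.06, 6.78 and 8.52 CPM in KO. Those of ZT20 were 1.42, 1.61, 1.84 and 2.25 CPM in WT and 3.08, 4.52, 6.54 and 6.74 CPM in KO. All 4 KO livers exceeded all 4 WT livers at ZT8, ZT12 and ZT20, and the groups overlapped at ZT0, ZT4 and ZT16. The log2 difference lay between 1.46 and 1.67 at ZT0, ZT8, ZT12, ZT16 and ZT20, and was 0.69 ± 0.38 at ZT4.

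**Figure D1:**
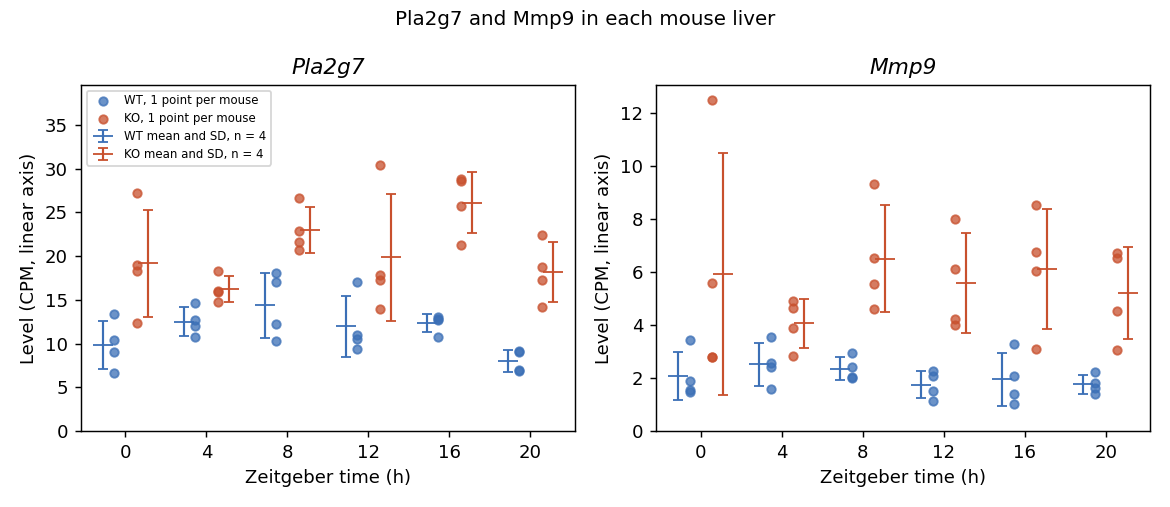
Level of Pla2g7 (left) and Mmp9 (right) in CPM on linear axes against zeitgeber time in hours. Points are single mice, and bars beside them are the mean and SD of 4 mice (WT blue, KO red). For Mmp9, 19 of 24 KO points lie above every WT point, and for Pla2g7, 15 of 24.

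The receptors Cx3cr1 and Fcgr4 were also higher in KO. Cx3cr1 was 1.63-fold higher averaged over times (95% interval 1.34 to 1.98, log2 difference 0.71 ± 0.14, SE) and Fcgr4 1.34-fold (1.18 to 1.51, 0.42 ± 0.09). Fcgr4 was higher in KO at 6 of 6 times and Cx3cr1 at 5 of 6. Over 24 mice, Cx3cr1 had a mean of 2.24 CPM ± 1.08 (SD) in WT and 3.54 ± 1.14 in KO, and Fcgr4 14.3 ± 2.85 in WT and 19.2 ± 4.52 in KO.

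Cx3cr1 at ZT0 was 2.03, 3.04, 3.33 and 5.75 CPM in WT livers and 2.0, 3.38, 4.0 and 4.57 CPM in KO livers. At ZT4 it was 1.34, 1.95, 2.25 and 4.24 CPM in WT and 2.6, 2.96, 3.32 and 3.35 CPM in KO. At ZT8 it was 1.46, 1.64, 2.44 and 2.7 CPM in WT and 2.85, 3.45, 3.61 and 5.33 CPM in KO. The genotypes overlapped at ZT0 and ZT4 and were apart at ZT8. The ZT12 values were 0.783, 1.04, 1.71 and 2.09 CPM in WT and 3.02, 3.44, 4.09 and 7.24 CPM in KO. The ZT16 values were 1.33, 1.43, 1.79 and 2.7 CPM in WT and 2.32, 3.21, 3.92 and 4.63 CPM in KO. The ZT20 values were 1.74, 1.76, 2.28 and 2.86 CPM in WT and 2.05, 2.3, 3.41 and 3.92 CPM in KO. The log2 difference thus ran from -0.02 ± 0.33 (SE) at ZT0 to 1.66 ± 0.35 at ZT12, the hour with the lowest WT levels and with the highest KO liver, mouse 20. All 4 KO livers lay above all 4 WT livers at ZT8 and ZT12.

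Fcgr4 ranged from 8.77 to 20.6 CPM (median 14.2) in the 24 WT livers and from 12.9 to 32.7 CPM (median 18.7) in the 24 KO livers. At ZT4 it was 12.4, 15.4, 15.8 and 18.3 CPM in WT and 19.3, 20.9, 21.6 and 24.1 CPM in KO. At ZT16 it was 13.2, 14, 15.8 and 17.8 CPM in WT and 18.3, 19, 21 and 21.7 CPM in KO. At these 2 times the groups were apart, and at the others they overlapped. KO mice 20 and 21 of ZT12 gave 13.0 and 32.7 CPM, close to the lowest value and the highest of all KO livers. Fcgr3, a close relative of Fcgr4, is also an activating IgG receptor, and how reads that match both were counted is not given in the sources used here.

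**Figure D2:**
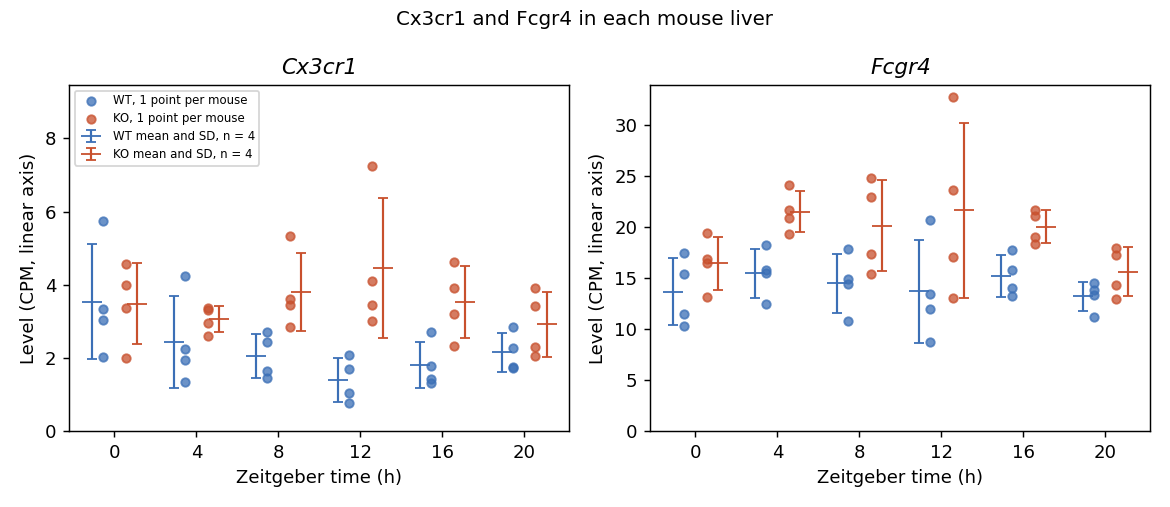
Level of Cx3cr1 (left) and Fcgr4 (right) in CPM on linear axes against zeitgeber time in hours, with 1 point per mouse and the mean and SD of 4 mice beside them. The Cx3cr1 values of the genotypes overlap at ZT0 and are apart at ZT8 and ZT12, while Fcgr4 is higher in KO on average at all 6 times.

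The markers of resident Kupffer cells differed less. Of the 6, the log2 differences averaged over times were 0.24 ± 0.09 (SE) for Clec4f, 0.23 ± 0.09 for Timd4, 0.21 ± 0.08 for Vsig4, 0.20 ± 0.10 for Cd5l, 0.20 ± 0.08 for Cd163 and -0.21 ± 0.18 for Marco. Clec4f was at 207.5 to 375 CPM (median 297) in WT and at 172 to 542 CPM (median 337) in KO. Cd5l was at 186 to 448 CPM (median 295) in WT and at 178 to 529 CPM (median 345) in KO. For Clec4f, 8 of 24 KO livers lay above every WT liver and 1 below, and for Cd5l 4 lay above and 1 below. The lowest and the highest KO liver of both genes were mice 20 and 21 of ZT12. Vsig4 ranged from 62.3 to 118 CPM (median 88.6) in WT and from 52.4 to 154 CPM (median 102) in KO. Timd4 ranged from 16.3 to 38.6 CPM (median 24.5) in WT and from 14.2 to 42.9 CPM (median 30.6) in KO. Cd163 ranged from 37.6 to 88.4 CPM (median 55.1) in WT and from 40.7 to 87.2 CPM (median 65.4) in KO. KO livers above every WT liver numbered 6 for Vsig4, 3 for Timd4 and 0 for Cd163, and 2, 2 and 0 lay below every WT liver. In each of these genes the KO median was above the WT median. Marco went the other way, at 22 to 90.9 CPM (median 39.2) in WT and 15.6 to 89.1 CPM (median 28.6) in KO. ZT4 was the hour at which all 4 KO livers lay above all 4 WT livers for Clec4f, Cd5l, Cd163 and Timd4: Clec4f, for example, was then 247, 288, 306 and 309 CPM in WT and 382, 408, 426 and 469.7 CPM in KO. For Vsig4 and Marco no hour separated the groups.

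In 11 cages, 1 mouse of each genotype had been housed together and sampled at the same hour. The KO mouse had the higher level in 11 of 11 such pairs for Pla2g7, Mmp9 and Fcgr4, with mean log2 differences of 1.06 ± 0.44 (SD, n = 11 pairs), 1.56 ± 0.56 and 0.54 ± 0.54. It was higher in 9 of 11 for Cx3cr1 (0.79 ± 0.73), in 10 for Clec4f, Cd5l and Vsig4, in 9 for Timd4 and in 8 for Cd163. For Marco it was higher in 6 of 11 (0.10 ± 0.66), and the mean difference had the opposite sign to that over all livers.

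Counted together, 9 of the 10 genes had a positive difference averaged over times, against 50.4% of all 14836 genes, and their median log2 difference was 0.24 against 0.00 over all genes. In all, 4 of the 10 passed edgeR's threshold of an adjusted p under 0.05 as higher in KO (Pla2g7, Mmp9, Cx3cr1 and Fcgr4), against 4.94% of all genes. Since this contrast chose the genes, nothing is read from that count or from the counts that follow. Without KO mouse 20 the count was 7, with Clec4f, Vsig4 and Timd4 added. In mice housed in groups it was 8. By hour, the counts were 2 at ZT0 (1.06% of all genes) and 0 at ZT4 (1.9%), where 3 had an unadjusted p under 0.05. ZT8 had 2 (3.78%), ZT12 had 4 (6.59%), ZT16 had 2 (2.6%) and ZT20 had 2 (0.647%). Those of ZT0, ZT8, ZT16 and ZT20 were Pla2g7 and Mmp9, and Cx3cr1 and Fcgr4 joined them at ZT12. The count at ZT0 was 0 without KO mouse 44 and 1 without WT mouse 42, 47 or 48, that at ZT8 was 0 without KO mouse 14 and 1 without WT mouse 13 or 16 or KO mouse 9, 10 or 15, that at ZT12 was 2 without KO mouse 21 or WT mouse 17, 22 or 23, and that at ZT20 was 1 without WT mouse 33, 35, 36 or 40 or KO mouse 37 or 38. All 4 KO livers lay above all 4 WT livers for 0 genes at ZT0 (3.04% of all genes), 6 at ZT4 (7.45%) and 3 at ZT8 (7.35%). Each of the later times had 2: ZT12 (5.68%), ZT16 (7.02%) and ZT20 (4.66%).

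**Figure D3:**
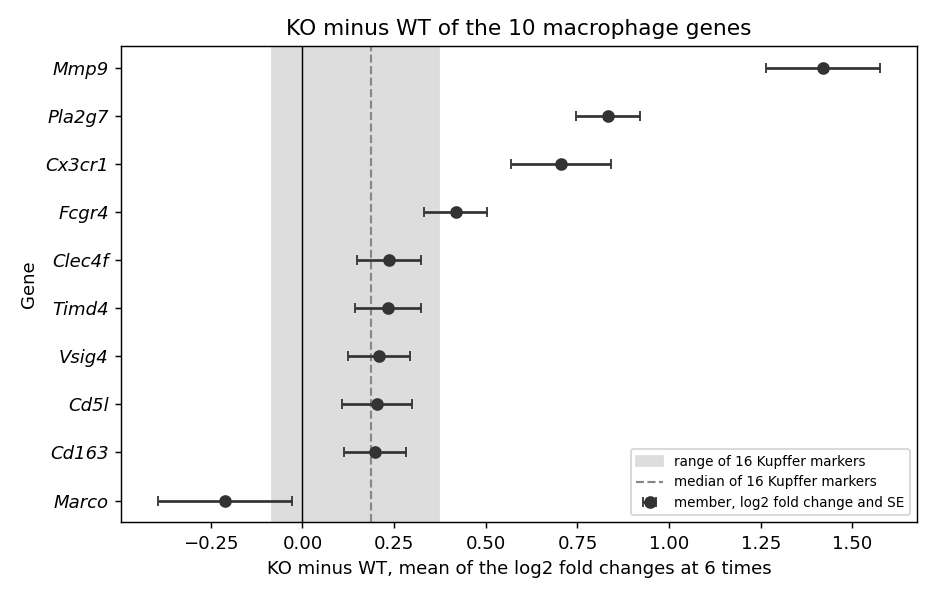
Difference between KO and WT on the log2 scale, as the mean over 6 times, for each of the 10 genes, with SE bars. The grey band is the range of 16 other Kupffer markers (-0.08 to 0.37) and the dashed line their median (0.19). Mmp9, Pla2g7, Cx3cr1 and Fcgr4 lie to the right of the band, 5 resident markers lie inside it, and Marco lies to its left.

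Another 16 Kupffer markers, none of them among the 10 genes, were tested as a separate list, also chosen with earlier results of these data known. In KO 2 of them rose: Fcna, the ficolin of Kupffer cells (0.37 ± 0.09, SE, adjusted p = 0.00512 by edgeR's quasi-likelihood test), and Mpeg1, which encodes perforin-2 (0.25 ± 0.08, adjusted p = 0.0336). By DESeq2 3 of the 16 rose, and 11 were higher with an unadjusted p under 0.05 by edgeR. None fell by any of these measures. The list's median log2 difference was 0.19, and 14 of its 16 genes were positive. Emr1, the gene of F4/80, differed by -0.01 (adjusted p = 0.958), Clec1b by 0.06 (0.680), and Folr2, a folate receptor, by 0.28 (0.0972). The number that rose was 7 of 16 without KO mouse 20 and 8 of 16 without KO mice 20, 21, 43 and 44. It was 1 without any one of 10 other mice (WT mice 8, 16, 17, 22, 33 and 42 and KO mice 6, 9, 37 and 41). The summed level of the list was 964 to 1892 CPM (median 1345) in WT and 948 to 2328 CPM (median 1540) in KO. In bulk liver, fewer or more cells of a type and less or more RNA per cell cannot be told apart.

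Setting each gene against the mean log2 level of these 16 markers in the same liver, the KO minus WT difference left for Clec4f, Cd5l, Vsig4, Cd163 and Timd4 was 0.04 to 0.07. For Mmp9 it was 1.21, for Pla2g7 0.68, for Cx3cr1 0.57 and for Fcgr4 0.27. On this relative scale 15 of 24 KO livers were above all WT livers for Pla2g7, 14 for Mmp9, 12 for Fcgr4 and 5 for Cx3cr1. Marco was lower by this measure (-0.47), at 6 of 6 times, with 9 of 24 KO livers below all WT livers. The difference common to the resident markers was thus close to that of the marker mean itself (0.15), and the larger differences were those of Mmp9, Pla2g7, Cx3cr1 and Fcgr4. This scale was added after the data had been seen, and it carries no test.

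Whether a gene followed the Kupffer markers from mouse to mouse does not depend on the difference between genotypes, and was tested within each genotype. Each liver's deviation from the mean of its group of 4 was correlated with the same deviation of the 16-marker mean over 24 mice, with 100000 two-sided permutations within groups, and 20 relations were adjusted together. Clec4f, Cd5l, Vsig4 and Timd4 followed the mean closely, with Pearson's r of 0.943 to 0.953 in WT and 0.915 to 0.975 in KO. Fcgr4 did so too, with r = 0.896 in WT (Spearman's rho = 0.806) and r = 0.922 in KO (rho = 0.888). The permutation p of Pearson's r was 1e-05 in both genotypes, the smallest these permutations can give, and the adjusted p was 2.22e-05. Marco and Cd163 were looser, with r = 0.720 and 0.723 in WT and 0.578 and 0.567 in KO, and adjusted permutation p of 0.00153, 0.00333, 0.0120 and 0.0124. Without the 2 livers farthest from the median, the r in KO was 0.424 for Marco and 0.652 for Cd163, values that were not tested. For Marco in KO, r was -0.10 in the cage set of ZT4 and ZT8, 0.759 in that of ZT12 and ZT16, and 0.777 in that of ZT20 and ZT0.

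Pla2g7 followed the marker mean in WT, with r = 0.753 and rho = 0.640 (adjusted permutation p = 0.00394 and 0.0127). In KO r was 0.529 (adjusted p = 0.0918 by permutation) and rho 0.508 (0.0429). Without the 2 livers farthest from the median, the r in KO was 0.364, a value that was not tested. Mmp9 did not pass in either genotype: r was 0.325 in WT (rho = 0.248, adjusted permutation p = 0.175 and 0.306) and -0.13 in KO (rho = -0.08, 0.605 and 0.740). Cx3cr1 passed in WT, with r = 0.582 and rho = 0.654 (adjusted permutation p = 0.0134 and 0.00426), but not in KO, with r = -0.20 and rho = -0.12 (0.514 and 0.685). The difference in r between genotypes was not tested. Without the 2 farthest livers, the WT values were 0.639 for Pla2g7, 0.251 for Mmp9 and 0.633 for Cx3cr1, and those of the 4 close followers and Fcgr4 were 0.843 to 0.956 over both genotypes. The KO values were then -0.198 for Mmp9 and 0.02 for Cx3cr1. Within cage sets A, B and C (8 mice each per genotype), r in WT was 0.743, 0.706 and 0.796 for Pla2g7, -0.03, 0.134 and 0.791 for Mmp9 and 0.723, 0.691 and 0.395 for Cx3cr1. In KO it was 0.239, 0.718 and 0.394 for Pla2g7, 0.322, -0.11 and -0.30 for Mmp9 and -0.25, -0.52 and 0.223 for Cx3cr1.

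**Figure D4:**
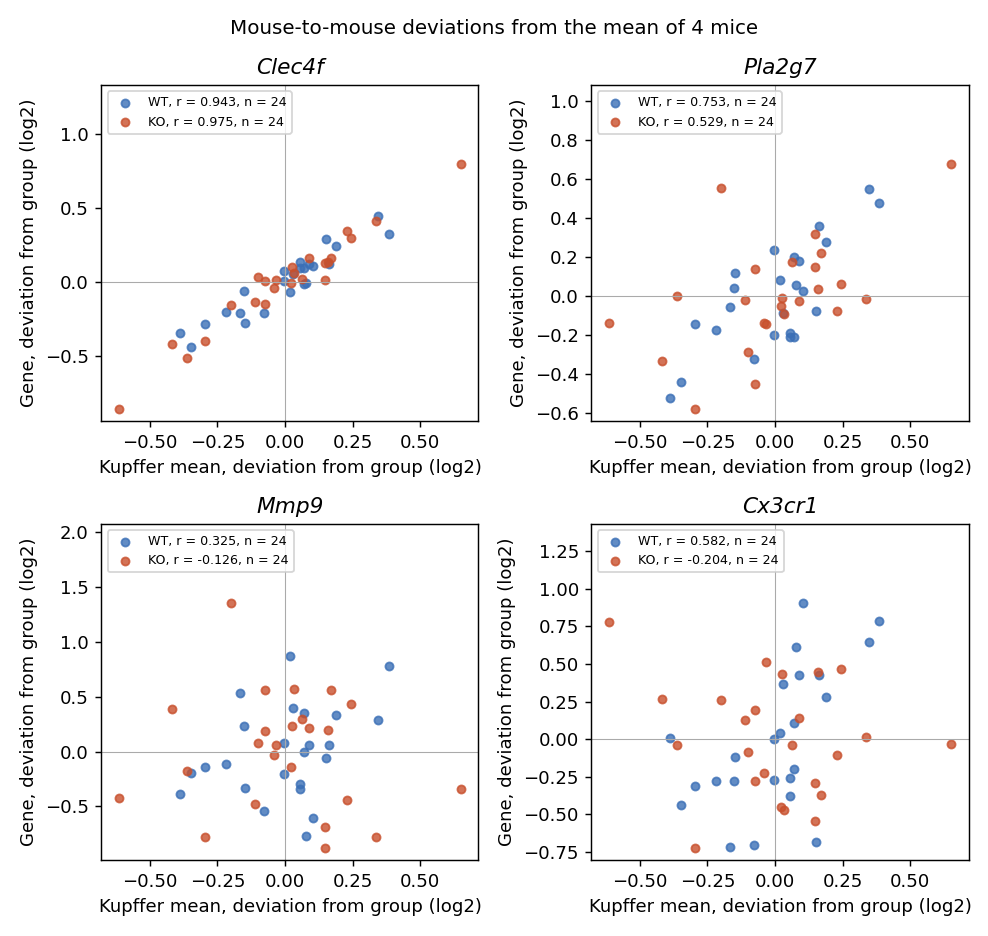
Deviation of each liver from the mean of its group of 4 for the mean of 16 Kupffer markers (horizontal axis, log2) and for Clec4f, Pla2g7, Mmp9 and Cx3cr1 (vertical axes, log2), with 1 point per mouse. Clec4f lies along a line in both genotypes (r = 0.943 and 0.975), and the KO points of Mmp9 and Cx3cr1 form no line (r = -0.13 and -0.20).

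Genes with deviations most like those of Pla2g7 over all 48 livers, among 12295 genes of at least 1 CPM, were the chemokine gene Ccl6 (Pearson's r = 0.723), the endosomal receptor gene Tlr13 (0.721), the myeloid receptor gene Cd300lf (0.710), Prcp (0.708) and Hddc2 (0.707). Those most like Mmp9 were C5ar1, the receptor for complement C5a (0.656), Flrt1 (0.642), Map3k4 (0.625), Ptpn1 (0.618) and Stk38l (0.612). These are descriptions over 48 libraries that share their depth and groups. Of the 10, Ccl6 rose (0.34 ± 0.10, adjusted p = 0.0323 by edgeR) and Flrt1 rose (0.55 ± 0.15, adjusted p = 0.0162). The Ccl6 rise did not pass without KO mice 20, 21, 43 and 44 (adjusted p = 0.0571 by edgeR), without KO mouse 21 alone (0.0606), or without any of KO mice 14, 30, 37 and 39 and WT mouse 23 (0.0506 to 0.0518). Neither Ccl6 nor Flrt1 passed with body weight as a covariate (adjusted p = 0.0725 and 0.0907 by edgeR) or when paired by cage (0.136 and 0.368). Neither passed in cage set B (0.411 and 0.0766) or C (0.139 and 0.967), and the Flrt1 difference in C was 0.03. The other 8 genes did not pass over all mice, with log2 differences of -0.05 to 0.23.

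Level over the day was tested apart from the genotype difference. In WT, 3 of the 10 genes had a 24 h rhythm at an adjusted p under 0.05 by edgeR, against 48.1% of all genes. Cx3cr1 had a fitted amplitude of 0.54 ± 0.14 (log2, SE) with a peak at ZT 0.749 (adjusted p = 0.00376). Pla2g7 had an amplitude of 0.34 ± 0.10 with a peak at ZT 8.94 (adjusted p = 0.0112), and Cd5l 0.30 ± 0.09 with a peak at ZT 5.89 (adjusted p = 0.0254). Their highest WT means stood at ZT0 for Cx3cr1 (3.54 CPM) and at ZT8 for Pla2g7 (14.4 CPM) and Cd5l (360 CPM), and their lowest at ZT12 for Cx3cr1 (1.40 CPM) and at ZT20 for the other two (8.02 and 229.7 CPM). With 1 mouse left out at a time, the WT rhythm of Cd5l passed in 46 of 48 fits, and those of Cx3cr1 and Pla2g7 in 48. Cd163 missed the threshold (amplitude 0.23 ± 0.09, adjusted p = 0.0650), and the remaining 6 had adjusted p of 0.296 to 0.890. In KO, 0 of the 10 passed, against 0.984% of all genes, and 2 had an unadjusted p under 0.05 (Cd5l and Fcgr4). Cd5l, for example, had an amplitude of 0.24 ± 0.09 in KO with a peak at ZT 6.35 (adjusted p = 0.219), and its rhythm did not differ between genotypes at this threshold (adjusted p = 0.927).

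The rhythm of Cx3cr1 differed between genotypes (adjusted p = 0.00853), the 1 gene of 10 to pass, against 22.8% of all genes. Its KO amplitude was 0.22 ± 0.13, and the difference no longer passed without KO mice 20, 21, 43 and 44 (adjusted p = 0.0643). Pla2g7 (adjusted p = 0.115) and Mmp9 (0.462) did not pass. In the test of whether the genotype difference varied over the 6 times, 0 of 10 passed, against 20.7% of all genes, and Cx3cr1 alone had an unadjusted p under 0.05 (adjusted p = 0.0766). Cx3cr1 passed that test when WT mouse 47 of ZT0 or WT mouse 19 of ZT12 was left out. The adjusted p was 0.237 for Pla2g7 and 0.611 for Mmp9.

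Markers of other blood cells passed the same test as higher in KO in no list. Of 12 monocyte markers, 0 rose by edgeR (1 by DESeq2, 2 with an unadjusted p under 0.05), and Ace, the angiotensin-converting enzyme of patrolling monocytes, fell by 0.35 on the log2 scale (SE 0.09, adjusted p = 0.0127). The defining markers Ccr2, Ly6c2 and Chi3l3 differed by 0.01, -0.04 and -0.53 (adjusted p = 0.968, 0.893 and 0.314). Of the 12, 8 had a positive difference, and the median was 0.07. The 2 higher with an unadjusted p under 0.05 were Plac8 (0.37, adjusted p = 0.0552 by edgeR) and Itgam (0.29, 0.135). The summed level of the list was 57.5 to 173 CPM in WT and 52.5 to 137 CPM in KO. Of 11 neutrophil markers tested, 0 rose, also by DESeq2 and with an unadjusted p under 0.05, and 11 of 11 had a negative difference. Ltf and Camp, which encode granule proteins, fell by 1.30 and 1.46 (SE 0.40 and 0.45, adjusted p = 0.0349 and 0.0346). Neither Ltf nor Camp passed without WT mouse 45, 19, 36 or 11, nor Ltf without WT mouse 4 or KO mouse 38 or 44, nor Camp without WT mouse 8 or 32, and 4 neutrophil markers passed as lower without KO mouse 30. S100a8 differed by -0.56 (adjusted p = 0.206) and S100a9 by -0.44 (adjusted p = 0.306), and Ly6g was at 0 in 36 of 48 livers and was not tested. Without KO mice 20, 21, 43 and 44 none of Ace, Ltf and Camp passed (adjusted p = 0.0538, 0.0839 and 0.0918). With body weight as a covariate none of them passed either (adjusted p = 0.136, 0.235 and 0.249 by edgeR). The neutrophil list summed to 8.62 to 47.2 CPM in WT and 7.44 to 38 CPM in KO.

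Of 12 genes of lipid-associated macrophages, 3 rose: Lpl, lipoprotein lipase (1.30 ± 0.15, SE, adjusted p = 1.54e-07), Fabp5, a fatty acid carrier (0.60 ± 0.14, 0.00556), and Lgals3, galectin-3 (0.35 ± 0.10, 0.0187). The defining markers Trem2, Gpnmb and Cd9 differed by 0.03, -0.20 and 0.22 and did not pass (adjusted p = 0.910, 0.546 and 0.179). Lpl, Fabp5 and Cd9 are also expressed outside macrophages. The list summed to 1585 to 1920 CPM in WT and 1683 to 2315 CPM in KO. Of 10 dendritic cell markers, 0 passed in either direction by edgeR or DESeq2, and 1 had an unadjusted p under 0.05. Flt3, Xcr1 and Clec9a differed by -0.29, -0.14 and -0.15 (adjusted p = 0.228, 0.486 and 0.176). Of 12 markers of T, NK and B cells, Ncr1, an NK cell receptor, fell by 0.70 (adjusted p = 0.0465, passing in 16 of 48 leave-one-out fits and not without the 4 KO mice, 0.140), while Cd3e, Cd3d and Cd4 differed by -0.12, 0.08 and -0.15 (adjusted p = 0.658, 0.753 and 0.368).

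Among cells of the liver tissue, 2 of 12 sinusoidal endothelial markers fell (Ptprb by 0.21, adjusted p = 0.00442, and Kdr by 0.18, adjusted p = 0.0107), and Stab2, Stab1 and Clec4g differed by 0.09, -0.12 and -0.02. Of 11 stellate cell markers, Col14a1 fell by 0.28 (adjusted p = 0.00512), and Lrat, Dcn and Col1a1 differed by -0.05, 0.06 and 0.03. None of 6 cholangiocyte markers passed by edgeR (1 by DESeq2, 1 with an unadjusted p under 0.05), with differences of 0.34, -0.06 and 0.06 for Krt19, Krt7 and Epcam. Of 7 hepatocyte markers, Apoa1, which encodes the main protein of HDL, rose (0.33 ± 0.09, adjusted p = 0.0194), and Ttr and Cps1 differed by -0.06 and -0.11. Without KO mice 20, 21, 43 and 44, Kdr (adjusted p = 0.0894) and Apoa1 (0.200) did not pass. Apoa1 also did not pass with body weight as a covariate (adjusted p = 0.202 by edgeR). By hour, 2 of the 12 endothelial markers passed as higher in KO at ZT4, 5 as lower at ZT12 and 1 as lower at ZT16. At ZT12, 3 of the 7 hepatocyte markers passed as lower. The genotype difference varied over the times for 3 endothelial and 2 hepatocyte markers, against 20.7% of all genes. Summed levels were 703 to 1046 CPM in WT and 609 to 998 CPM in KO for the endothelial list and 14477 to 28658 CPM in WT and 15717 to 26226 CPM in KO for the hepatocyte list. The part of any of these cells in the differences of the 10 genes was not tested.

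Other genes of the pathways around the 2 enzymes mostly did not pass. Of 14 genes of PAF and phospholipase A2 metabolism tested besides Pla2g7, Pla2g12b, a secreted phospholipase A2 relative, rose (0.15 ± 0.04, SE, adjusted p = 0.0263; 0.06 and 0.268 without KO mice 20, 21, 43 and 44) and Lpcat3, which builds arachidonate into phospholipids, fell by 0.24 (adjusted p = 0.00116). The genes of the other enzymes that inactivate PAF, and of their subunits, did not pass. Pafah1b1 (a regulatory subunit), Pafah1b2 and Pafah1b3 differed by -0.04, -0.01 and -0.03 (adjusted p = 0.539, 0.937 and 0.883 by edgeR) and Pafah2 by 0.05 (0.545). Ptafr, the PAF receptor, differed by -0.13 (adjusted p = 0.286). Of 16 matrix metalloproteinases and inhibitors tested besides Mmp9, 2 rose: Mmp2, gelatinase A (0.33 ± 0.07, adjusted p = 0.00315), and Mmp19 (0.18 ± 0.04, 0.00847). Within cage sets the differences of Pla2g12b in A and C (-0.11 and -0.04) and of Mmp19 in B (-0.03) had the opposite sign. Mmp2 did not pass in cage set A (0.03, adjusted p = 0.919 by edgeR) or C (0.29, 0.195), nor in group-housed mice (0.27, 0.0553). The inhibitors that fell were Timp3 by 0.60 (adjusted p = 1.57e-08) and Reck, by 0.22 (0.00777). Timp1, an inhibitor of gelatinase B, differed by 0.10 (adjusted p = 0.731), Mmp8, a collagenase of neutrophils, by -0.07 (0.912), and Lcn2, whose protein binds gelatinase B, by -0.25 (0.753).

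Among the receptors, Fcgr3 rose (0.37 ± 0.09, SE, adjusted p = 0.00556), and the 4 other members of its list did not pass: Fcgr1 differed by 0.21 (adjusted p = 0.232), Fcer1g, the signalling chain, by 0.13 (0.389), the inhibitory Fcgr2b by -0.08 (0.286) and Fcgrt by -0.10 (0.117). Of 16 scavenger receptors and genes of apoptotic cell uptake, Timd2, a relative of Timd4, rose (0.18 ± 0.04, adjusted p = 0.00248). Msr1, a class A scavenger receptor like Marco, differed by 0.21 (adjusted p = 0.0996). Of 19 chemokines and receptors, Ccl24 (0.52 ± 0.12, adjusted p = 0.00352) and Ccl6 rose, and Cxcl13 fell by 0.52 (0.00903). Cx3cl1, the ligand of the Cx3cr1 receptor, differed by 0.00 ± 0.10 (adjusted p = 0.994), and Ccl2, which draws monocytes, by 0.21 (0.548). Of 14 factors of macrophage growth and identity, Csf1, the growth factor that macrophages depend on, rose (0.64 ± 0.10, adjusted p = 2.53e-05) and Smad4 fell by 0.13 (0.0384, passing in 29 of 48 leave-one-out fits). The Csf1 difference was 0.73, 1.51 and 1.59 at ZT0, ZT4 and ZT8 and -0.03, 0.08 and -0.05 at ZT12, ZT16 and ZT20, and it varied over the times (adjusted p = 0.000184 for the interaction). Csf1r, the receptor for Csf1, differed by 0.18 (adjusted p = 0.168) and Il34, its other ligand, by -0.13 (0.384). By cage set, the Csf1 difference was 1.55 in A, where it passed, and 0.03 in B (adjusted p = 0.958 by edgeR) and 0.35 in C (0.222), where it did not.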

How the data were processed

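RNA from the livers of 48 mice was counted per gene. The labels name poly-A selection with a kit that does not record strand, and per the submitters' processing notes CASAVA (no version given) and STAR 2.4.0f1 were used with build mm9. The authors deposited whole-number counts for 23732 genes. Totals per library differ by so little that a common depth appears to have been set before deposit. Such a step is not given in the sources used here, and neither is the treatment of reads that match several genes. Overlapping genes on opposite strands cannot be told apart. The intervals given for fold differences come from the standard errors of edgeR's fit over all mice. They take in the spread between mice as well as counting error. Replicate pairs differed by 30.3 to 171 times the counting variance, so no 2 libraries were alike within counting error.

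The quasi-likelihood tests of edgeR 4.0.16 (R 4.3.3) were run on these counts: filterByExpr with a minimum count of 10 kept 14836 genes (99.975% of counts), with TMM scaling. The 12 group means (36 residual df) yielded KO minus WT as a mean over times, at each time, and the interaction. Cosine and sine terms of a 24 h period for each genotype (42 residual df) yielded amplitudes, peaks and their difference. Adjusted p are Benjamini-Hochberg values over all 14836 genes, and a gene passed at under 0.05. Standard errors follow from the F statistics. CPM use TMM scaling, and log2 CPM add a prior count of 2. The scripts were tested on simulated data. Permutations used numpy 2.4.6 in Python 3.11.15.

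The 10 genes and all gene lists were chosen with earlier results of these data known. Named genes are the 10 genes, the called genes of each list (at most 4 per test), the first 3 genes of each cell type list, and the 5 genes most like Pla2g7 and Mmp9 by Pearson correlation. The promoter motifs, Lcn2, Timp1, Mmp8, Cx3cl1, Ccl2, Il34, Csf1r, the PAF genes and the Fc and scavenger receptors that did not pass are named for their roles, outside that rule. Alternatives were total counts or DESeq2 size factors for scaling, other filters, DESeq2 1.42.0, body weight as a covariate, cage as a random block (limma 3.58.1 voom), group-housed mice, single cage sets, pairing by cage as a fixed block (added after the data were seen), and fits without single mice or 4 KO mice. Alb and Mmp10 had no row and were not analysed here, and 2 further listed genes were left out of the lists and are not reported here.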

Additional observations from a re-analysis of the deposited data

Results flagged for a closer look

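In 3 of the 120 groups of 4 mice examined, 1 mouse stood far from the other 3 on the log2 scale (its gap to the nearest mouse, as a share of the group's range, was above Dixon's critical value); chance alone gives this in about 1 in 20 groups. Pla2g7 at ZT16 was lower in WT mouse 32 (10.8 CPM, share 0.855) than in the others (12.7 to 13.0 CPM). Vsig4 at ZT20 was lower in WT mouse 33 (66.3 CPM, share 0.876) than in the others (85.5 to 88.7 CPM). Marco at ZT12 was higher in WT mouse 19 (61.0 CPM, share 0.880) than in the others (37.5 to 39.8 CPM).

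The 24 h rhythm of Cx3cr1 differed between genotypes (adjusted p = 0.00853, edgeR). Among the listed genes around macrophages, the KO minus WT difference varied over the 6 times for several. Csf1 (adjusted p = 0.000184) was highest in KO relative to WT at ZT8 (log2 difference 1.59) and about level at ZT12 (-0.03). Cd9 (adjusted p = 1e-04) went from -1.11 at ZT4 to 1.16 at ZT16. Lpl (adjusted p = 0.0176) went from 0.36 at ZT4 to 2.45 at ZT12, higher in KO at 6 of 6 times. Il34 (adjusted p = 0.0184) went from -0.89 at ZT12 to 0.44 at ZT4, and Ace (0.0204) from -0.86 at ZT0 to 0.42 at ZT20. Id3, a regulator of Kupffer cell identity (adjusted p = 0.0185), went from -0.82 at ZT0 to 0.73 at ZT8. Mertk, a receptor for dying cells (adjusted p = 0.0339), went from -0.29 at ZT12 to 0.23 at ZT20, Fcgrt (0.0161) from -0.42 at ZT8 to 0.12 at ZT0, and Rxra (0.0124) from -0.38 at ZT12 to 0.21 at ZT0.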

How the results depend on the processing

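Over the 13 alternatives that did not leave out single mice, Pla2g7 differed by 0.52 to 1.08 and Mmp9 by 1.07 to 1.66 on the log2 scale. Both passed in 13 of 13, while Cx3cr1 (0.21 to 1.30) and Fcgr4 (0.26 to 0.53) passed in 10 of 13. The 10 genes were chosen by this contrast in the same mice, so their passes here and below describe the settings and are no support for the differences. Cx3cr1 did not pass in cage sets A (0.60) and C (0.21), Fcgr4 not in B (0.53) and C (0.26), and neither when paired by cage (0.78 and 0.53). Sign changed, never past the threshold, for Cd163 (-0.13) and Mmp19 (-0.033) in cage set B, for Pla2g12b in cage sets A (-0.11) and C (-0.038), and for Marco when paired by cage (0.10).

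Counts that moved by over 1.5 times are given against the reported one, and the cause was not tested. In group-housed mice, 8 of the 10 genes rose (4 reported), 7 Kupffer markers (2) and 2 monocyte markers (0), and 0 monocyte (1) and 0 neutrophil markers (2) fell. Without KO mice 20, 21, 43 and 44, 8 Kupffer and 2 monocyte markers rose, 0 monocyte and 0 neutrophil markers fell, 0 of the 10 genes differed in rhythm (1), and 1 of them rose at ZT0 (2), 1 at ZT4 (0) and 1 at ZT12 (4). With body weight as a covariate, 381 genes rose (733) and 330 fell (581), and 0 monocyte and 0 neutrophil markers fell. In cage set A, 1314 genes rose and 1337 fell, with 4 Kupffer, 2 monocyte and 1 lipid-associated gene (3) higher, 1 lipid-associated gene lower (0), and 0 monocyte and 0 neutrophil markers lower. In cage set B, 1 Kupffer marker rose and 0 neutrophil markers fell. In cage set C, 2 of the 10 genes, 0 Kupffer markers, 1 lipid-associated gene and 408 genes in all rose, and 255 genes, 0 monocyte and 0 neutrophil markers fell. Total counts gave 1 Kupffer marker, DESeq2 1 monocyte marker higher, the filter at 1 CPM 1 neutrophil marker lower, and no filter 28 rhythmic genes in KO (146) and 1 of the 10 genes higher at ZT8 (2). Single cage sets hold 16 mice each.

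Leaving out 1 mouse at a time (48 fits), 4 to 7 of the 10 genes, 1 to 7 Kupffer and 0 to 2 monocyte markers rose and 0 to 4 neutrophil markers fell. The interaction passed for 0 to 1 of the 10 genes, the rhythm difference for 1 to 2 and the KO rhythm for 3 (without KO mouse 14) to 473 (without KO mouse 44) of all genes. The WT rhythm passed for 2 to 4 of the 10 genes. Of the 10 genes, 0 to 2 rose at ZT0, 0 to 2 at ZT8, 2 to 4 at ZT12 and 1 to 2 at ZT20. Counts of the other lists ranged from 0 to 4 over the 61 alternatives. Mouse numbers are not shared between groups and pair no mice. Pairing by cage was added after the data were seen: with cage as a fixed block over the 11 cages holding both genotypes, 2 of the 10 genes (Pla2g7 and Mmp9) and 1 Kupffer marker rose (median 0.30 against 0.19), 1 lipid-associated gene rose, 0 monocyte and 0 neutrophil markers fell, and 120 genes in all rose and 76 fell. That fit has 11 mice per genotype. With cage as a random block over all mice (correlation of cage mates 0.0806), 4 of the 10 genes rose. Of 27 list genes named as having passed, 23 did not when paired by cage, 15, 19 and 21 in cage sets A, B and C, 12 with body weight, 8 in group-housed mice and 8 without the 4 KO mice. The 12 lost with body weight as a covariate were Ace, Ltf, Camp, Ccl6, Cxcl13, Smad4, Mmp19, Pla2g12b, Fabp5, Ncr1, Apoa1 and Flrt1.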
